A study of Mus musculus with 24 samples.

Results

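The comparison set the first sample of the light phase, zeitgeber time 0 (ZT0, lights on), against the sample taken 4 h earlier in the dark, ZT20, in microdissected kidney tubules of the mouse. It used 8 of the 24 RNA pools of the series. These were 2 pools of distal convoluted and connecting tubules (DCT/CNT) and 2 pools of cortical collecting ducts (CCD) at each of both times. Male C57BL/6J mice gave their left kidneys for all pools, on standard chow and a cycle of 12 h light and 12 h dark. Tubules were dissected after collagenase treatment, RNA of 5 animals per time was pooled, and 10 ng of total RNA per pool was amplified for an oligonucleotide array. The labels do not say whether the pools of a group share animals, whether both segments came from the same animals, or whether the ZT0 mice were killed just before or just after lights came on. The p-values given rest on the spread of these pools, which may be technical. In pooled tissue, fewer cells of a type and less RNA per cell cannot be told apart.

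The DCT and CNT reabsorb sodium, calcium and magnesium, and the CCD sets the final sodium, potassium, acid and water content of urine. These cells hold their own circadian clock. In it, BMAL1 (encoded by Arntl) pairs with CLOCK or NPAS2 and switches on the Per, Cry and Nr1d genes through E-box sequences. PER and CRY proteins then hold back that pair, and the NR1D proteins (REV-ERB) hold back Arntl, Npas2 and Cry1 through ROR elements. Mice are active in the dark, so the step from ZT20 to ZT0 runs from late activity into the start of rest.

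Expression is given as the deposited log2 value of 1 probe set per gene, and a difference of 1 log2 unit is a fold of 2. Each difference is ZT0 minus ZT20, averaged over both segments unless a segment is named, and SE is the standard error of limma's moderated fit. The markers Slc12a3 and Aqp2 followed the segment labels. Over the 8 pools the DCT sodium chloride cotransporter Slc12a3 had a mean of 10.83 in DCT/CNT and 5.28 in CCD, and the water channel Aqp2 had 7.91 and 10.36. Other markers were less distinct. The calcium-binding protein genes Calb1 (12.67 and 11.73) and S100g (13.4 and 11.92) were bright in CCD too. The water channel gene Aqp3 (13.07 and 13.46) and the exchanger gene Slc26a4 (13.4 and 13.39) were nearly equal. Whether the CCD pools held CNT RNA was not tested. The podocyte marker Nphs1 was dim in both segments (4.64 and 4.51). RNA of neighbouring segments was present, since the proximal tubule phosphate transporter Slc34a1 had means of 7.75 and 7.84 and the thick ascending limb cotransporter Slc12a1 had means of 8.16 and 7.05. The pools of a group correlated at r = 0.988 to 0.995 across genes, and the DCT/CNT ZT20 pools differed most from each other (SD of the pool difference 0.373, against 0.275 to 0.368 in the other 11 groups).

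No gene passed the test for the step over both segments (limma, adjusted p under 0.05, 0 of 18194 genes, 0%). At an unadjusted p under 0.05 there were 1439 genes (7.91%), 630 higher at ZT0 (3.46%) and 809 lower (4.45%). The smallest adjusted p was 0.087, shared by Per2, Usp2, Chic1 and Dnajb7. At the median SE of 0.12, a single gene would have needed a difference of 0.90 to be called. In the same fit, the step from ZT0 to ZT4 gave 12 called genes, ZT4 to ZT8 gave 35, ZT8 to ZT12 gave 68, ZT12 to ZT16 gave 120 and ZT16 to ZT20 gave 21. Neighbouring steps share pools, and the difference between these counts was not tested. The 0 was not stable to the processing. Over 20 alternatives the count ran from 0 to 16 and 41 genes were called in at least 1 of them, Per2 in 6, Usp2, Chic1 and Dnajb7 in 4 each. Without the second DCT/CNT ZT20 pool 14 genes were called, without the first CCD ZT20 pool 11, and without the second DCT/CNT ZT0 pool or the first DCT/CNT ZT20 pool 1 each.

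Each segment alone gave no called gene either. In DCT/CNT limma called 0 genes (0%), with 2026 at an unadjusted p under 0.05 and a smallest adjusted p of 0.114. In CCD it called 0 genes (0%), with 713 at an unadjusted p under 0.05 and a smallest adjusted p of 0.208. The difference of the step between the segments was called for 0 genes (0%), with 1225 at an unadjusted p under 0.05 and a smallest adjusted p of 0.526. Leaving out 1 pool leaves its group with a single pool, which is then assumed to vary like the other groups. The DCT/CNT count was 106 in that case without the second DCT/CNT ZT20 pool, of the group whose pools differed most. It was 8 with an intensity trend in the variance, 6 without the second DCT/CNT ZT0 pool, 2 without the first DCT/CNT ZT0 or ZT20 pool, and 1 without either CCD ZT20 pool. The CCD count was 6 without the first CCD ZT20 pool and 1 without the first CCD ZT0 pool. The count of segment differences was 11, 2 and 1 without the second DCT/CNT ZT20 pool, the second DCT/CNT ZT0 pool and the first DCT/CNT ZT20 pool. Across all genes the DCT/CNT and CCD differences, from separate pools, correlated at r = 0.09, and 51.4% of genes had the same sign in both. Of the 2026 genes at an unadjusted p under 0.05 in DCT/CNT, 1073 (53.0%) had the same sign in CCD. Genes are not independent replicates. In the lists below, pools are said not to overlap where, within a segment, both ZT0 pools lay on the same side of both ZT20 pools.

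The core clock genes split into both directions. Of 16 measured core clock genes, 8 were higher and 8 lower at ZT0, with a median difference of -0.04 beside -0.02 over all genes. None was called. At an unadjusted p under 0.05, 3 were higher (Arntl, Npas2, Nr1d1) and 5 lower (Per2, Per3, Cry1, Cry2, Ciart), beside 3.46% and 4.45% of all genes. Those 3 higher genes and 4 lower ones (Per2, Per3, Cry1 and Rora) had no overlap in either segment. Over all genes, 3.19% were higher and 3.66% lower without overlap (581 and 665 genes).

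**Figure D1:**
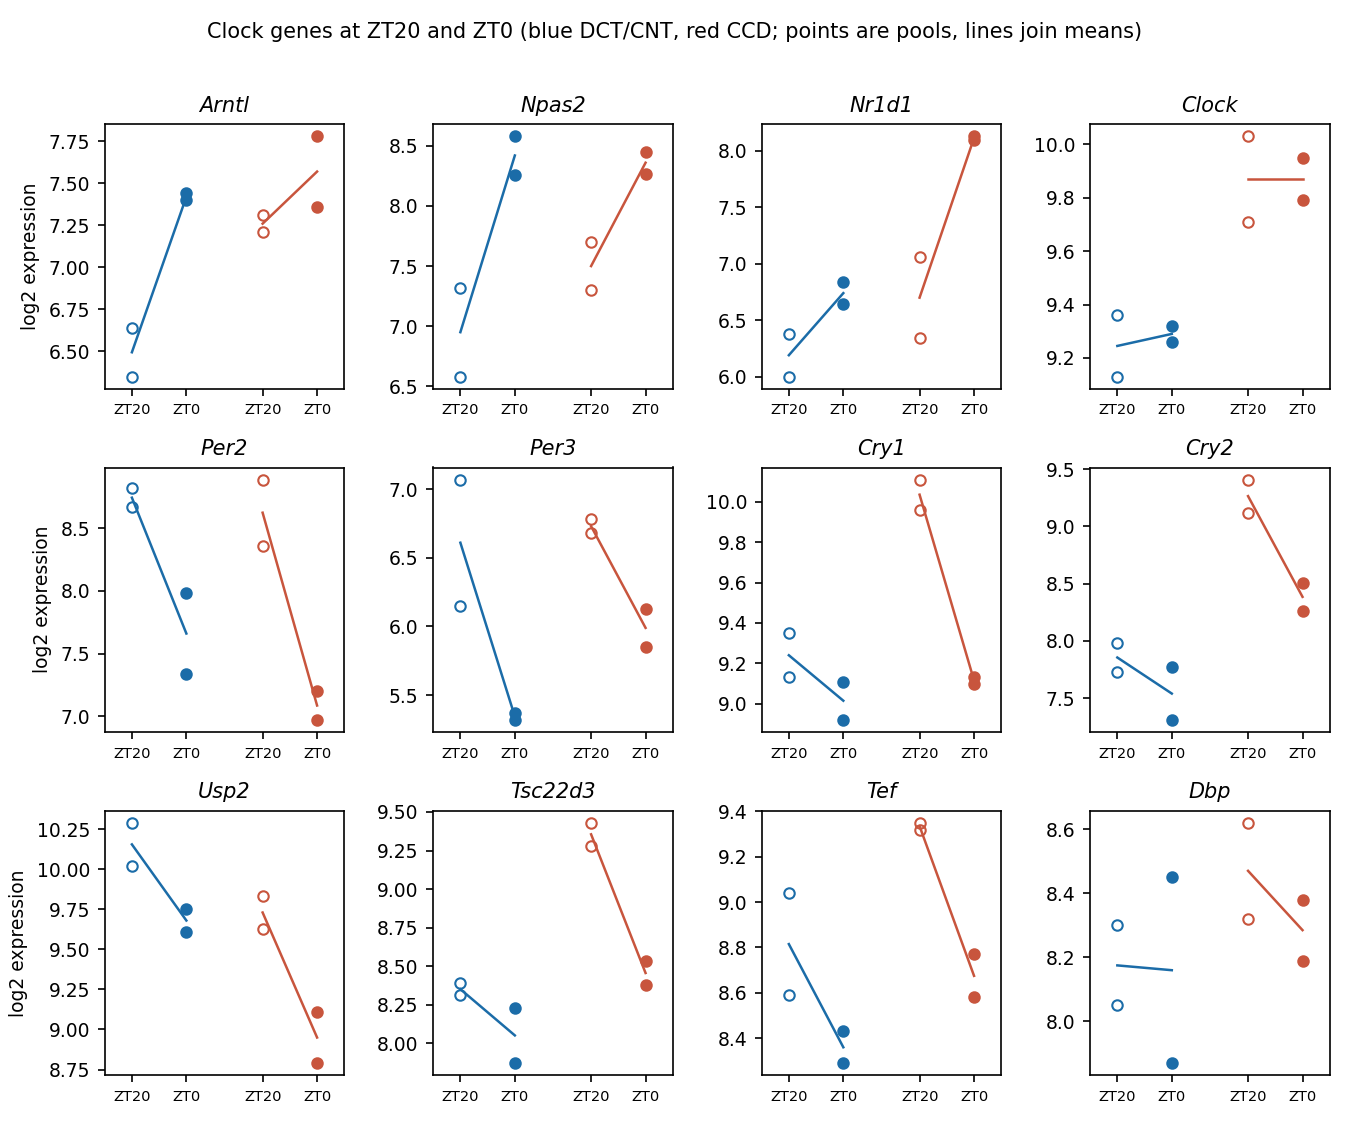
Log2 expression of 12 clock genes at ZT20 (open points) and ZT0 (filled points) in DCT/CNT (blue) and CCD (red). Each point is 1 pool and lines join the group means; axes differ between genes and do not start at 0. Arntl, Npas2 and Nr1d1 are higher at ZT0 and Per2, Per3, Usp2 and Tef lower in both segments without overlap, while Clock and Dbp overlap in both.

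Npas2, the partner of BMAL1 that can replace CLOCK, was at 7.32 and 6.58 in the DCT/CNT pools of ZT20 and at 8.58 and 8.26 in those of ZT0. In CCD it was at 7.30 and 7.70 at ZT20 and at 8.45 and 8.27 at ZT0. All ZT0 pools lay above all ZT20 pools, a difference of 1.16 (SE 0.25), or 2.24-fold (limma adjusted p = 0.202). Its other probe set gave only 0.16. Arntl, which encodes BMAL1, was at 6.64 and 6.35 at ZT20 and 7.44 and 7.4 at ZT0 in DCT/CNT, and at 7.31 and 7.21 against 7.78 and 7.36 in CCD. The groups did not overlap in either segment, though the CCD gap was narrow, and the difference was 0.62 (SE 0.20, limma adjusted p = 0.472). Both genes were at their highest of the 6 times at ZT0 in both segments. Clock itself overlapped in both segments (9.36, 9.13 against 9.26, 9.32 in DCT/CNT, and 9.71, 10.03 against 9.95, 9.79 in CCD), with a difference of 0.02 (95% interval -0.21 to 0.26) that was -0.01 after quantile or cyclic loess normalisation.

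Nr1d1, which encodes the repressor REV-ERB alpha, was at 6.00 and 6.38 at ZT20 and at 6.84 and 6.64 at ZT0 in DCT/CNT. In CCD it was at 7.06 and 6.34 at ZT20 and at 8.13 and 8.10 at ZT0. The difference was 0.98 (SE 0.19), or 1.98-fold (limma adjusted p = 0.135), with 0.55 in DCT/CNT and 1.41 in CCD (unadjusted p of the difference between segments 0.0367, not called). ZT20 was its lowest time in both segments and ZT8 its highest, so ZT0 lay early in its upward course. Its relative Nr1d2 showed 0.08 (SE 0.16), with overlap in both segments.

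Per2, a repressor of the BMAL1 pair, had the smallest p of the clock genes. Its levels were 8.82 and 8.67 at ZT20 against 7.34 and 7.98 at ZT0 in DCT/CNT, and 8.36 and 8.89 against 6.97 and 7.20 in CCD. Every ZT0 pool was below every ZT20 pool, a difference of -1.31 (SE 0.21, 95% interval -1.75 to -0.87), or 2.48-fold lower (limma adjusted p = 0.087). Its other probe sets gave -0.97 and -0.09. Per3 was at 6.15 and 7.07 against 5.37 and 5.32 in DCT/CNT and at 6.68 and 6.78 against 5.85 and 6.13 in CCD. It was lower without overlap in both segments, by -1.0 (SE 0.21, limma adjusted p = 0.202), but only 2 of its 5 other probe sets had the same sign (-0.10 to 0.24). Per1 stood apart from both, at 7.69 and 8.06 against 7.59 and 8.13 in DCT/CNT and at 8.41 and 8.76 against 8.32 and 8.89 in CCD. Its pools overlapped in both segments and its 95% interval ran from -0.40 to 0.40, with a sign that turned under quantile and cyclic loess normalisation.

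The cryptochromes, the partners of PER, were lower mainly in CCD. Cry1 was at 9.35 and 9.13 against 8.92 and 9.11 in DCT/CNT, where the groups nearly touch, and at 10.11 and 9.96 against 9.10 and 9.13 in CCD. Its differences were -0.23 and -0.92 (unadjusted p of the difference between segments 0.0439), and -0.57 over both (SE 0.16, limma adjusted p = 0.332). Cry2 was at 7.73 and 7.98 against 7.31 and 7.77 in DCT/CNT, with overlap, and at 9.12 and 9.41 against 8.51 and 8.26 in CCD. Its differences were -0.31 and -0.87 (unadjusted p 0.0403), and -0.59 over both (SE 0.13, limma adjusted p = 0.202). Neither difference between segments was called after adjustment. The E-box repressor Ciart was lower, at -0.32 (SE 0.15), with overlap in CCD. Rora, which activates through the ROR element, showed -0.14, the E-box repressor genes Bhlhe40 and Bhlhe41 0.32 and -0.08, and the PER kinases Csnk1d and Csnk1e -0.10 and 0.02, none of them at an unadjusted p under 0.05.

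The clock output list, genes driven by the clock, leaned to lower levels at ZT0. Of 12 measured genes 3 were higher and 9 lower, with a median of -0.20 beside -0.02 over all genes, and 6 were lower without overlap in both segments, against 3.66% of all genes. Usp2, which encodes a ubiquitin-specific protease, was at 10.02 and 10.29 against 9.61 and 9.75 in DCT/CNT and at 9.83 and 9.63 against 9.11 and 8.79 in CCD. All ZT0 pools of a segment were below its ZT20 pools, a difference of -0.63 (SE 0.10), or 1.55-fold lower (limma adjusted p = 0.087), and its other probe set gave -0.62. Tef, a PAR bZIP factor that binds D-boxes, was at 8.59 and 9.04 against 8.29 and 8.43 in DCT/CNT and at 9.32 and 9.35 against 8.77 and 8.58 in CCD, a difference of -0.56 (SE 0.11, limma adjusted p = 0.177). The other PAR factors were less clear, with Hlf at -0.33 (SE 0.16) and Dbp at -0.10 (SE 0.18).

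Tsc22d3, which encodes the glucocorticoid-induced leucine zipper protein GILZ, was at 8.31 and 8.39 against 7.87 and 8.23 in DCT/CNT and at 9.28 and 9.43 against 8.53 and 8.38 in CCD. The CCD difference of -0.90 was larger than the -0.30 of DCT/CNT (unadjusted p 0.0174, not called), and both together gave -0.60 (SE 0.11, limma adjusted p = 0.127). Nampt, the rate-limiting enzyme of NAD salvage, had the tightest pools of the list, at 10.54 and 10.54 against 10.15 and 10.22 in DCT/CNT and at 10.67 and 10.64 against 10.44 and 10.42 in CCD. Its difference was small, -0.29 (SE 0.07, limma adjusted p = 0.252). Wee1, a kinase gene that delays mitosis, was lower, at -0.39 (SE 0.15), and Lonrf3 was higher in DCT/CNT only in value (0.73 against -0.02 in CCD, unadjusted p of the difference 0.00921, not called). Leo1, Tspan4, Tfrc and the D-box repressor Nfil3 lay between -0.09 and 0.04, with the signs of Leo1, Tfrc and Nfil3 turning under at least 1 alternative.

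The promoters of 6 clock genes, 1 with a higher and 5 with a lower value at ZT0 and none called, are shown for the clock elements they hold. Sequences are from RefSeq (GRCm38.p6), the 250 bases before the start site, 5′ to 3′ on the gene's strand. Motifs were searched on both strands of 300 bases, from 250 before to 50 after the start site. Capitals mark the E-box CACGTG or its variant CACGTT (read AACGTG on the other strand) and, in Per3, the D-box TTATGNAA. Cry1 (chr10:85185055-85185304, minus strand) has the E-box 60 bases and the variant 79 bases before its start. Cry2 (chr2:92434070-92434319, minus) has the variant at 166 bases, and Nr1d1 (chr11:98775378-98775627, minus) at 28. Ciart (chr3:95882229-95882478, minus) has E-boxes at 116, 58 and 44 bases, and Tef (chr15:81802423-81802672, plus, 1 of its 2 entries) at 127. Per3 (chr4:151044666-151044915, minus) has D-boxes at 205 and 158 bases.
Cry1: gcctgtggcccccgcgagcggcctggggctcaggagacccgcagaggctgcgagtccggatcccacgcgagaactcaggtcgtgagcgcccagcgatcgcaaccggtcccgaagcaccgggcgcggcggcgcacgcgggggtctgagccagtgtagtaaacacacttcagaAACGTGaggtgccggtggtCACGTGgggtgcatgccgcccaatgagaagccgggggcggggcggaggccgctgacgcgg
Cry2: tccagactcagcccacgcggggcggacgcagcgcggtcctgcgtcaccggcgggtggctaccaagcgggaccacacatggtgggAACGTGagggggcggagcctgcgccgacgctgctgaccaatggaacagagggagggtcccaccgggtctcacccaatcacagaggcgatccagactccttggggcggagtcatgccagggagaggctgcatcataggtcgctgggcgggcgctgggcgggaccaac
Nr1d1: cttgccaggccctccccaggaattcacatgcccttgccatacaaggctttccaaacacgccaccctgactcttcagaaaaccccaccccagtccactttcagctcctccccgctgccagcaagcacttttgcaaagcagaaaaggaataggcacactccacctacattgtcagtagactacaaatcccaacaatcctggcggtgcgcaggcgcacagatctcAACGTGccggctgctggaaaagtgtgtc
Ciart: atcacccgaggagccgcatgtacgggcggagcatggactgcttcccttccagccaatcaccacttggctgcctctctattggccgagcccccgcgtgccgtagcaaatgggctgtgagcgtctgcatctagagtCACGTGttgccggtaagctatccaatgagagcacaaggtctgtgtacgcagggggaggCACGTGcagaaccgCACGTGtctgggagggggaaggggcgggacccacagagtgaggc
Tef: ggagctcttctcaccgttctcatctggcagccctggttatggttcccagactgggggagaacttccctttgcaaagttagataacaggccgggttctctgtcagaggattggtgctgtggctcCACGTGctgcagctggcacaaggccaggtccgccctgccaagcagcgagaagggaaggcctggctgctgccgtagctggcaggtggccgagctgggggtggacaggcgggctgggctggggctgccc
Per3: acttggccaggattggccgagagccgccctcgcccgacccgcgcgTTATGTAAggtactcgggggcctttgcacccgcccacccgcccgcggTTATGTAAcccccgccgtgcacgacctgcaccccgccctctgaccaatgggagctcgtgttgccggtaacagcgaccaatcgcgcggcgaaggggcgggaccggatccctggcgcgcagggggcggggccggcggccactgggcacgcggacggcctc

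Of the 28 clock genes, 24 had a promoter entry, and 7 of these (29.2%) held the E-box, against 10.2% of the 14453 genes with an entry. The variant was in 3 of 24 (12.5%, all genes 6.01%), the D-box in 2 (8.33%, all genes 2.88%) and the ROR element ANTAGGTCA in 3 (12.5%, all genes 0.616%). In the windows shown, the variant stands before Nr1d1, which was higher at ZT0, and before Cry1 and Cry2, which were lower, and the E-box before Cry1, Ciart and Tef, all lower. These are only part of the 7 genes with the E-box. The others, and the holders of the ROR element, are not named here, so no direction can be tied to a motif. A match is a description of letters, not a binding site.

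The immediate early list, genes that cells switch on within minutes of a stimulus, leaned to higher levels at ZT0. Of 25 measured genes 21 were higher and 4 lower, with a median of 0.38 (0.42 in DCT/CNT and 0.37 in CCD), beside -0.02 and 44.9% higher over all genes. None was called. At an unadjusted p under 0.05, 15 were higher and 2 lower (Nr4a3 and Myc), against 3.46% and 4.45% of all genes. Without overlap in either segment, 11 were higher and 2 lower, against 3.19% and 3.66% of all genes. The mean level of the list was 8.88 and 9.03 in the DCT/CNT pools of ZT20 and 9.15 and 9.45 in those of ZT0, and 9.55 and 9.61 against 9.91 and 10.16 in CCD. Both second pools of ZT0 were the higher ones. Without them, 20 of 25 were still higher, but the median was 0.25 and 7 were higher at an unadjusted p under 0.05.

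Jun, a subunit of the AP-1 transcription factor, was at 11.90 and 12.02 against 12.37 and 12.62 in DCT/CNT and at 12.48 and 12.60 against 12.99 and 13.10 in CCD. The groups were well apart in both segments, by 0.52 (SE 0.09), or 1.43-fold (limma adjusted p = 0.127). Ier2, an immediate early gene of growth stimulation, was at 8.73 and 9.19 against 9.40 and 9.55 in DCT/CNT and at 10.23 and 10.29 against 11.08 and 11.16 in CCD, a difference of 0.68 (SE 0.12, limma adjusted p = 0.127). Both genes were called in some alternatives, Jun in 2 and Ier2 in 3 of 20. Fosb, another AP-1 subunit, was at 9.39 and 9.99 against 10.17 and 11.10 in DCT/CNT and at 9.44 and 10.02 against 10.72 and 10.88 in CCD, a difference of 1.01 (SE 0.21, limma adjusted p = 0.202). The orphan receptor gene Nr4a1 was at 7.43 and 7.45 against 7.96 and 8.74 and at 8.89 and 8.74 against 9.40 and 9.76, a difference of 0.84 (SE 0.18, limma adjusted p = 0.202). In Fosb and Nr4a1 the pools within ZT0 of DCT/CNT differed from each other by almost as much as the groups.

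Among the other members, Egr2 showed the largest value at 1.03 (SE 0.28), with 0.82 in DCT/CNT and 1.23 in CCD. The stress factor gene Atf3 showed 0.98 (SE 0.32), with 0.38 and 1.57 and overlap in DCT/CNT. The AP-1 genes Fos and Junb showed 0.40 and 0.58, and the growth arrest genes Btg2 and Gadd45b 0.61 and 0.80. Smaller differences were seen for Zfp36, which promotes decay of cytokine messages (0.38), for Egr1 (0.26) and for the Krüppel-like factor genes Klf4 and Klf6 (0.49 and 0.36). Myc, a growth regulator, went the other way (5.40 and 5.52 against 5.29 and 4.86 in DCT/CNT, 7.06 and 7.56 against 6.96 and 7.03 in CCD), by -0.35 (SE 0.12), as did Nr4a3 at -0.24 (SE 0.07). Fosl2 and Egr3 lay near 0 at -0.05 and -0.11. The list was therefore not uniform even within the Nr4a and Fos families.

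**Figure D2:**
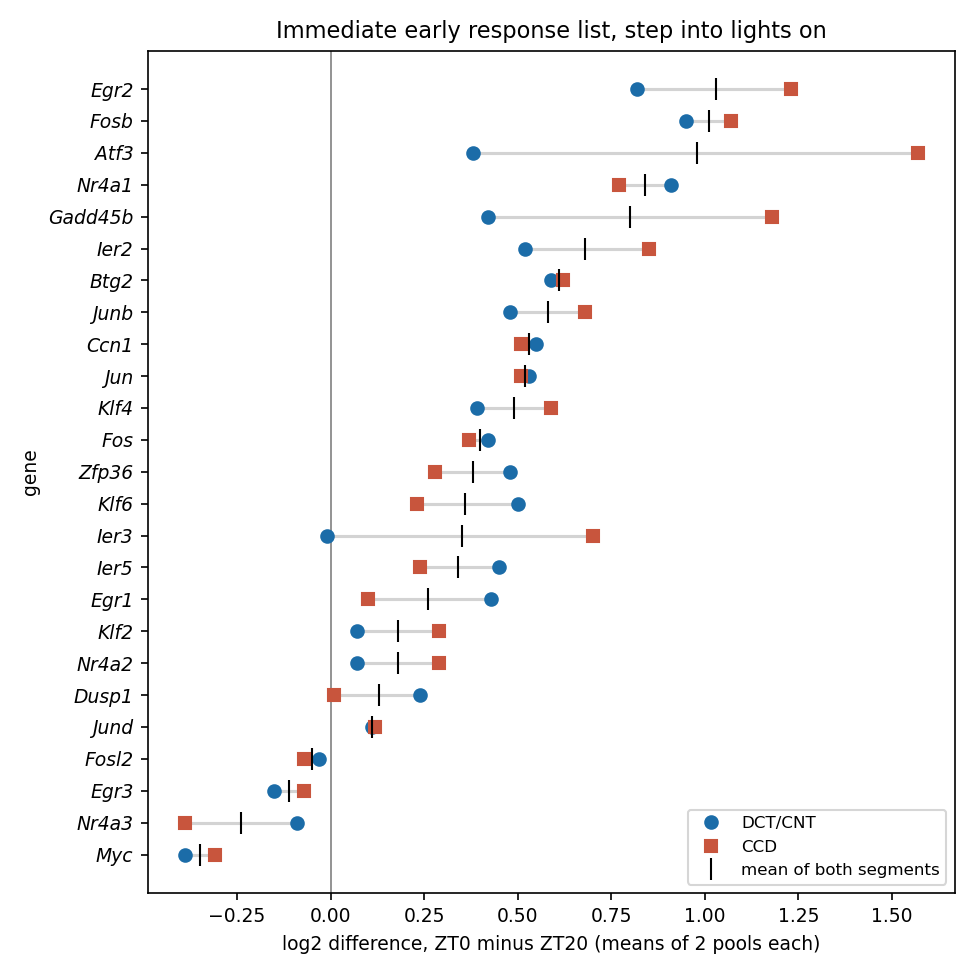
Log2 difference ZT0 minus ZT20 for the 25 immediate early genes, with DCT/CNT as blue circles, CCD as red squares (each a difference of means of 2 pools) and the mean of both segments as a black bar. The bars of 21 genes lie above 0 and those of Myc, Nr4a3, Egr3 and Fosl2 below; Egr2 has the highest mean, at 1.03.

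The promoters of 2 members that were higher without overlap in both segments are shown, chosen because they hold letters of elements through which cAMP and serum signals can be read. Here too a match is only a description of letters, and whether these signals acted was not tested. Btg2 (chr1:134079156-134079405, minus strand) holds the cAMP element TGACGTCA 166 bases before its start, in capitals. Zfp36 (chr7:28379229-28379478, minus strand) holds a CArG box 58 bases before its start, in capitals. Of the 21 members with an entry, 2 (9.52%) held the cAMP element, against 2.92% of all genes, 2 (9.52%) a CArG box, against 1.58%, and 5 (23.8%) the E-box, against 10.2%.
Btg2: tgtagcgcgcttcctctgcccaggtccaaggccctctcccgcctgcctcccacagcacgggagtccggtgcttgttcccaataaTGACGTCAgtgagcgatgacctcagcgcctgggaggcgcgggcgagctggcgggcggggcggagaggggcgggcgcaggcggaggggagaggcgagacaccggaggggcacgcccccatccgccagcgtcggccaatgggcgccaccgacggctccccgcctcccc
Zfp36: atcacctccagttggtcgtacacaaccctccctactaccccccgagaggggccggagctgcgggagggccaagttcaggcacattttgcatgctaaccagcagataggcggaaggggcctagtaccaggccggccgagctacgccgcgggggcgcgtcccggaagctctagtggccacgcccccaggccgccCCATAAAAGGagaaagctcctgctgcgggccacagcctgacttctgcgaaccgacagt

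The step into lights on was then set against the step into lights off, ZT12 minus ZT8, which shares no pools with it. The 2 steps lie at opposite points of the light and dark cycle. A daily rhythm and a response to the change of light therefore cannot be told apart. The difference of the 2 steps was called for 97 genes (limma, adjusted p under 0.05, 0.533% of 18194), 42 higher and 55 lower in the step into lights on. Choosing genes by that difference favours those whose steps go opposite ways, as all 97 did, and in 71 of them the step into lights off was the larger. The list held 13 clock genes and 6 immediate early genes. Core clock members were Arntl, Npas2, Per2, Per3, Cry1, Cry2 and Nr1d1, and output members were Tef, Hlf, Wee1, Nampt, Usp2 and Tsc22d3. The split was 65 higher and 56 lower with arrays brought to equal medians. The count was 212 with an intensity trend in the variance, 172 over the brighter genes and 146 with probe sets averaged.

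The count was 56, 62 and 63 without the second pool of CCD ZT20, CCD ZT0 and DCT/CNT ZT0. It was 27, with 8 clock genes, without both ZT0 pools numbered 2, and 11, with 5 clock genes and 0 immediate early genes, with proximal tubule and thick ascending limb marker levels as covariates. Npas2, Per2, Cry1, Usp2 and Tsc22d3 were the clock genes among the 11. The proximal tubule list had medians of -0.45 into lights on and 1.06 into lights off, and the thick ascending limb list -0.17 and 0.42. The covariates therefore changed along with the comparison itself, and the reason for the lost calls was not tested. Among genes that lost their call with them, the differences moved both ways. Fosb went from 2.2 to 2.3 and Nr1d1 from 1.39 to 1.81, but Hlf from -1.16 to -0.84 and Pck1 from -3.32 to -1.52.

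Usp2 had the smallest p of this comparison, with -0.63 into lights on and 0.93 into lights off, a difference of -1.56 (SE 0.15, adjusted p = 0.00033). Per2 showed -1.31 and 1.31, a difference of -2.62 (SE 0.29, adjusted p = 0.000792), steps of equal size and opposite sign. Npas2 showed 1.16 and -1.97, a difference of 3.13 (SE 0.36, adjusted p = 0.000857), and Arntl 0.62 and -1.09, a difference of 1.71 (SE 0.29, adjusted p = 0.0121). Cry1 had a smaller step at lights on (-0.57) than at lights off (1.43), a difference of -2.01 (SE 0.22, adjusted p = 0.000792). The differences of Per3 (-2.22, adjusted p = 0.00269), Tsc22d3 (-1.32, 0.00111), Tef (-1.25, 0.00152) and Nampt (-0.81, 0.00127) were called as well.

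The other called clock genes were close to the threshold. Nr1d1 showed 0.98 and -0.41, a difference of 1.39 (SE 0.27, adjusted p = 0.0276), and its call was lost on leaving out 12 of the 16 pools of both steps in turn (adjusted p 0.0523 to 0.0754). It held without the second DCT/CNT or first CCD pool of ZT20, the first DCT/CNT ZT8 pool or the first CCD ZT12 pool. Wee1 (-1.07, adjusted p = 0.031) was lost for 11 of 16 (0.0534 to 0.0936). It held without those same ZT20 pools, the second DCT/CNT or first CCD pool of ZT8 or the second CCD ZT12 pool. Hlf (-1.16, adjusted p = 0.0306) was lost for 9 (0.0586 to 0.0925), namely the second ZT0 pool of either segment, the first DCT/CNT and second CCD pool of ZT20, both DCT/CNT pools and the first CCD pool of ZT8, and the second DCT/CNT and first CCD pool of ZT12. Cry2 (-0.96, adjusted p = 0.0245) was lost for 7 (0.0506 to 0.0754), namely the first DCT/CNT and second CCD pool of ZT0, the second CCD ZT20 pool, both CCD ZT8 pools, and the first DCT/CNT and second CCD pool of ZT12. Without both ZT0 pools numbered 2 none of these 4 was called (0.0513 to 0.172). Arntl was lost only without both ZT0 pools numbered 2 (0.0553) and with the covariates (0.258).

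**Figure D3:**
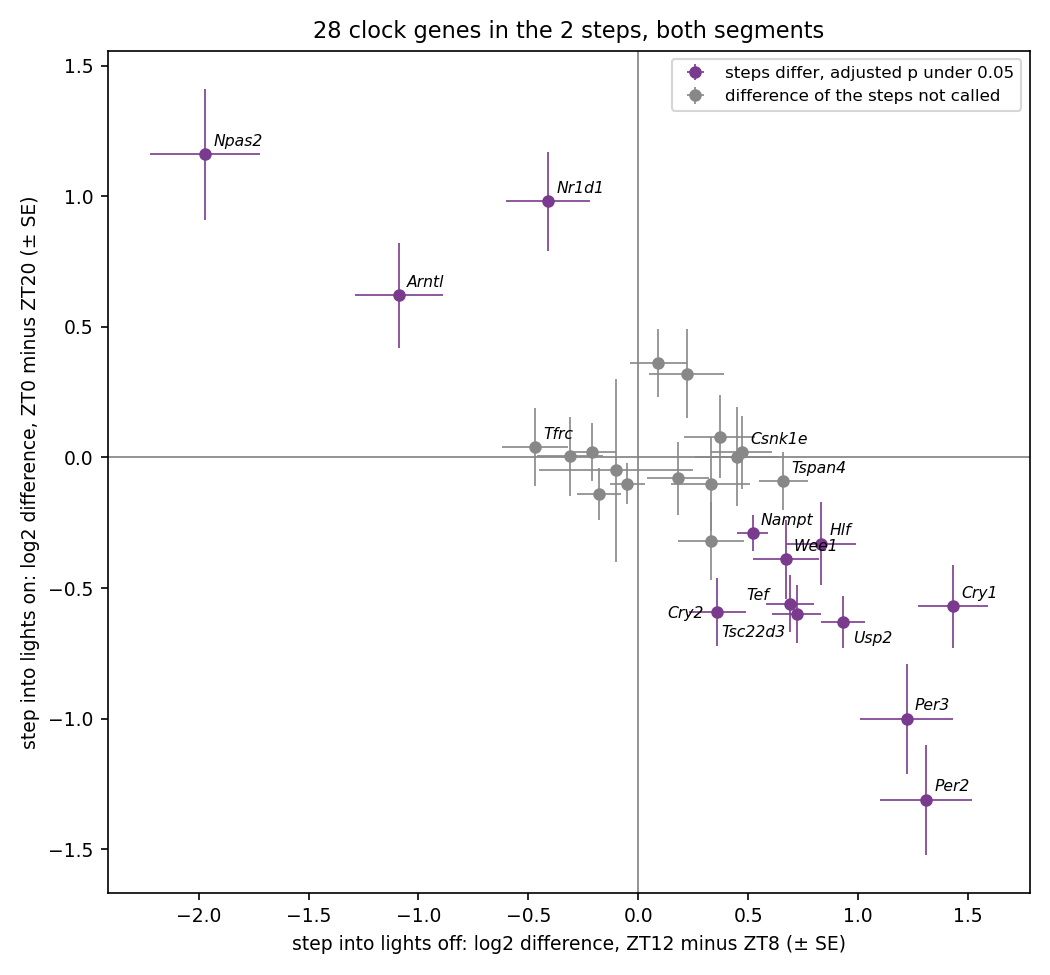
Log2 difference into lights on (ZT0 minus ZT20, vertical) against that into lights off (ZT12 minus ZT8, horizontal) for 28 clock genes, means of both segments with bars of 1 SE in each direction. Purple points are the 13 genes whose 2 steps differ at adjusted p under 0.05 and have opposite signs in the 2 steps; Npas2 is at 1.16 and -1.97 and Per2 at -1.31 and 1.31.

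Outside the clock lists the smallest p belonged to Akr1c19, an aldo-keto reductase gene. Its pools were at 10.84 and 10.83 against 10.37 and 10.48 in DCT/CNT and at 11.17 and 11.04 against 10.78 and 10.68 in CCD. All ZT0 pools of a segment were lower, by -0.39, and the difference from lights off was -1.0 (SE 0.10, limma adjusted p = 0.000582). Mapre2, a microtubule end-binding protein gene, showed a difference of -1.08 (SE 0.13, adjusted p = 0.0009) and Coq10b, a coenzyme Q binding protein gene, -0.81 (adjusted p = 0.00174). Higher in the step into lights on were Plppr1 (1.26, adjusted p = 0.00132), the acyl-CoA synthetase gene Acsl5 (0.74, 0.00139) and Mab21l3 (0.94, 0.00207). Avpr1a, a vasopressin receptor gene, also had a called difference (0.74, adjusted p = 0.00173), but its step into lights on was only 0.05 (95% interval -0.10 to 0.19) and the rest came from -0.69 into lights off. With the proximal tubule and thick ascending limb covariates Akr1c19 and Plppr1 were still called, while Mapre2 (0.0554), Acsl5 (0.059), Coq10b (0.0617), Mab21l3 (0.074) and Avpr1a (adjusted p = 0.116) were not.

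Of the immediate early genes, Jun (0.99, adjusted p = 0.00225), Fosb (2.20, 0.00278), Ier2 (1.16, 0.00648), Fos (0.89, 0.0116) and Nr4a1 (1.28, 0.0379) were higher and Myc (-0.86, 0.0306) lower in the step into lights on. Nr4a1 lost its call on leaving out 12 of the 16 pools in turn (adjusted p 0.0562 to 0.103) and held only without the first ZT0 or second ZT8 pool of either segment. Myc lost it for 10 (0.0517 to 0.0797) and held without the first DCT/CNT pool of ZT0, ZT8 or ZT12, the first CCD ZT20 pool, or the second CCD pool of ZT8 or ZT12. Fos (0.0763), Ier2 (0.0631), Nr4a1 (0.167) and Myc (0.135) were not called without both ZT0 pools numbered 2. The whole list had a median of -0.20 into lights off, with 18 of 25 members lower there. The ATF4 targets Slc7a11 (-2.64, adjusted p = 0.0115) and Chac1 (-1.52, 0.00768), the sterol sensor gene Insig1 (0.97, 0.0146), Sult1a1 (-1.11, 0.0124) and Pck1 (-3.32, 0.0124) were called too. Insig1 lost its call without the second CCD ZT0 pool (adjusted p = 0.0508). Without both ZT0 pools numbered 2, Chac1 (0.0631), Sult1a1 (0.0513), Pck1 (0.0935) and Insig1 (0.123) were not called, and with the covariates none of the 5 was (0.059 to 0.215). Pck1 is itself a member of the proximal tubule list that makes up one covariate.

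Proximal tubule markers differed between the ZT0 pools themselves. The mean level of the 18 measured markers was 7.67 and 8.15 at ZT20 and 7.76 and 6.84 at ZT0 in DCT/CNT, and 7.85 and 7.98 against 8.02 and 6.91 in CCD. Both ZT0 pools numbered 2 were low and both numbered 1 were not. All 18 markers were lower at ZT0 with a median of -0.45, and 4 were so at an unadjusted p under 0.05 (4.45% of all genes). With 1 pool left out the median ran from -0.73 (without the first CCD ZT0 pool; -0.72 without the first DCT/CNT ZT0 pool) to -0.21 (without the second CCD ZT0 pool). The members at that p, in either direction, were 8 and 7 without those first ZT0 pools, 1 without the second ZT0 pool of either segment or the first DCT/CNT ZT20 pool, and 2 without the second CCD ZT20 pool. Without both second ZT0 pools, a setting chosen after seeing the data, 8 of 18 were lower and the median was 0.05. Pck1, a gluconeogenesis enzyme gene of the proximal tubule, was at 8.61 and 9.20 against 8.0 and 7.32 in DCT/CNT and at 8.66 and 9.36 against 8.27 and 6.71 in CCD, a difference of -1.38 (SE 0.40, limma adjusted p = 0.372). The water channel gene Aqp1 showed -0.50, the endocytic receptor gene Cubn -0.63 and the glucose transporter gene Slc5a2 -0.30. Into lights off the same list had a median of 1.06, with 18 of 18 higher.

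**Figure D4:**
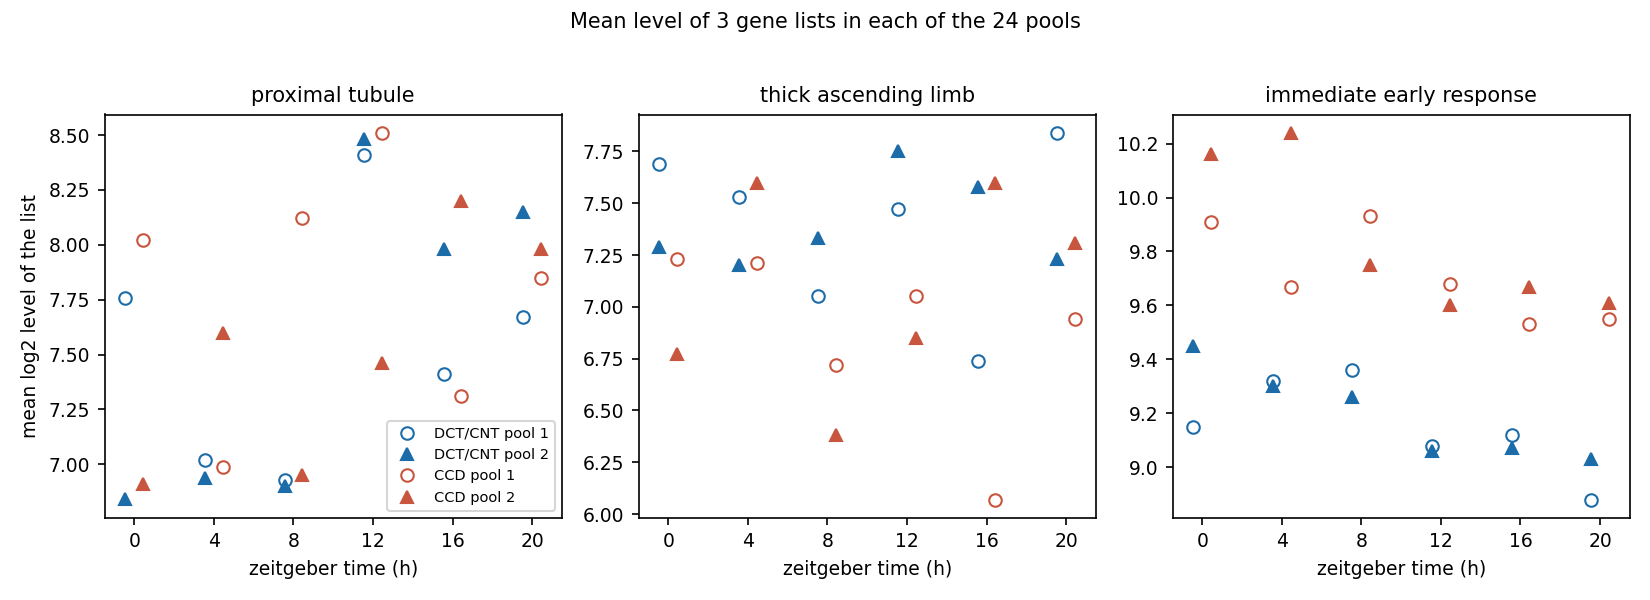
Mean log2 level of the proximal tubule, thick ascending limb and immediate early lists in each of the 24 pools by zeitgeber time (h), DCT/CNT in blue and CCD in red, open circles for pool 1 and triangles for pool 2; axes do not start at 0. At ZT0 the proximal tubule level of both second pools (6.84 and 6.91) is lower than that of both first pools (7.76 and 8.02), and the immediate early level is higher (9.45 and 10.16 against 9.15 and 9.91).

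In the thick ascending limb markers the second ZT0 pool was also the lower one in both segments, with smaller gaps, and the ZT20 pools differed from each other as well, with means of 7.84 and 7.23 against 7.69 and 7.29 in DCT/CNT and 6.94 and 7.31 against 7.23 and 6.77 in CCD. Of 11, 7 were lower at ZT0 with a median of -0.17, which ran from -0.32 without the first DCT/CNT ZT0 pool to 0.003 without the second CCD ZT0 pool. Without both second ZT0 pools 4 were lower with a median of 0.21. With both marker levels as covariates, 20 of 25 immediate early genes stayed higher with a median of 0.44, and the clock genes kept their signs apart from Dbp, Leo1 and Per1. Of the remaining cell types, the median was -0.05 over 5 podocyte genes, 0.01 over 12 endothelial, -0.20 over 13 vascular, mesangial and fibroblast, -0.07 over 15 leukocyte and -0.25 over 4 erythrocyte genes, with at most 1 member of each at an unadjusted p under 0.05.

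Transport genes and markers of the segments themselves showed mostly small values. Of 22 DCT and CNT genes, 6 were higher and 16 lower (median -0.12), with 1 and 2 at an unadjusted p under 0.05, against 3.46% and 4.45% of all genes. The DCT markers Slc12a3 and Pvalb showed -0.42 and -0.61 (limma unadjusted p 0.499 and 0.381), with -0.50 and -0.99 in DCT/CNT. Their levels ran from 9.29 to 11.88 and from 6.33 to 9.69 over the DCT/CNT pools of both times. Neither gene was in the covariate lists, and the share of DCT against CNT was not tested. The calcium-binding protein gene Calb1 was at 12.75 and 12.71 against 12.65 and 12.58 in DCT/CNT and at 12.02 and 11.72 against 11.61 and 11.56 in CCD, a difference of -0.20 (SE 0.08), without overlap. The kinase gene Wnk1, which controls the sodium chloride cotransporter, showed -0.17, the calcium-binding protein gene S100g -0.23, and the calcium pump gene Atp2b4 0.71 at a dim level.

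Of 17 principal cell genes for sodium and potassium, 7 were higher and 10 lower (median -0.04). Nedd4l, the ubiquitin ligase that removes the epithelial sodium channel from the membrane, was at 9.73 and 9.74 against 10.07 and 10.16 in DCT/CNT and at 10.80 and 10.81 against 11.01 and 10.99 in CCD. All ZT0 pools of a segment were higher, by 0.29 (SE 0.07, limma adjusted p = 0.252), and its 5 other probe sets gave 0.28 to 0.55. The mineralocorticoid receptor gene Nr3c2 showed 0.20 (SE 0.09), also without overlap, and Usp2 and Tsc22d3, lower as above, are members of this list too. Of 21 water transport and vasopressin genes, 11 were higher and 10 lower (median 0.02). The endothelin receptor gene Ednrb (0.27, SE 0.11) was the 1 member at an unadjusted p under 0.05, where 3.46% of all genes were higher. The prostaglandin receptor genes Ptger1 and Ptger3 showed 0.47 and 0.24 and the adenylate cyclase gene Adcy6 -0.13.

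The intercalated cell list, acid-base cells of both segments, had 17 of 19 members higher at ZT0 with a median of 0.11, of which 4 were higher at an unadjusted p under 0.05 (Kit, Hmx2, Slc26a4, Slc4a9), against 3.46% of all genes. In either direction, 1 member was at that p without the first DCT/CNT ZT20, first CCD ZT0 or second CCD ZT20 pool, 2 without the second DCT/CNT ZT0 pool and 7 with equal medians. The median was 0.06 without the second CCD ZT20 pool. The receptor kinase gene Kit was at 8.45 and 8.70 against 9.18 and 9.22 in DCT/CNT and at 9.79 and 9.72 against 9.91 and 9.73 in CCD. It was clearly apart in DCT/CNT (0.62) and not in CCD (0.06), with an unadjusted p of 0.00397 for the difference, which was not called, and 0.34 over both (SE 0.08, limma adjusted p = 0.252). The chloride and bicarbonate exchanger gene Slc26a4 (pendrin) showed 0.15 (SE 0.06), its basolateral counterpart Slc4a9 0.20 (SE 0.09), and the homeobox gene Hmx2 0.32 (SE 0.13). The mean level of the list ran from 10.81 to 10.91 at ZT20 and from 10.96 to 11.01 at ZT0 in DCT/CNT, and from 11.14 to 11.27 against 11.30 to 11.34 in CCD, apart in both segments. Taken singly, only 1 of the 19 members was higher without overlap in both segments, against 3.19% of all genes.

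Cholesterol and fatty acid synthesis genes were higher in 19 of 23 (median 0.12). Insig1 was the 1 member at an unadjusted p under 0.05, where 3.46% of all genes were higher. The median was 0.06 without the first DCT/CNT ZT20 pool and 0.07 without the second CCD ZT0 pool. Insig1, which holds back sterol synthesis when sterols are plentiful, was at 9.14 and 9.14 against 9.41 and 9.76 in DCT/CNT and at 9.75 and 9.81 against 10.08 and 10.25 in CCD, a difference of 0.41 (SE 0.12, limma adjusted p = 0.368). The synthesis enzyme genes Msmo1, Idi1 and Elovl6 showed 0.32, 0.27 and 0.21.

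Of 21 amino acid response genes 7 were higher and 14 lower, with a median of -0.11, beside 44.9% higher and a median of -0.02 over all genes. Slc7a11, the cystine transporter gene, was dim at 4.16 and 3.31 against 2.79 and 3.10 in DCT/CNT and at 6.03 and 5.55 against 3.02 and 4.01 in CCD, a difference of -1.54 (SE 0.31, limma adjusted p = 0.177). The difference was larger in CCD than in DCT/CNT (-2.28 against -0.79, unadjusted p 0.0291, not called). The folate enzyme gene Mthfd2 showed -0.43 and the glutathione-degrading enzyme gene Chac1 -0.46, both without overlap, while Atf4, the factor that drives them, showed 0.23.

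Glucocorticoid response genes were higher in 7 and lower in 14 of 21 (median -0.09). Zbtb16, a factor induced by glucocorticoids, was at 7.78 and 6.77 against 6.08 and 6.23 in DCT/CNT and at 8.63 and 7.43 against 6.81 and 6.67 in CCD. It was lower without overlap, by -1.21 (SE 0.32, limma adjusted p = 0.32), with wide spread within ZT20. Hsd11b1, which regenerates active glucocorticoid, showed -0.60 (SE 0.18), and Pdk4, which slows glucose oxidation, 0.47 with overlap in both segments.

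Xenobiotic metabolism and PAR bZIP target genes were higher in 7 and lower in 12 of 19 (median -0.02). At an unadjusted p under 0.05, 5 were lower, against 4.45% of all genes. The sulfotransferase gene Sult1a1 was at 8.92 and 8.85 against 7.98 and 8.34 in DCT/CNT and at 8.48 and 8.54 against 7.86 and 7.82 in CCD, lower in all pools, at -0.70 (SE 0.13, limma adjusted p = 0.135). Cyp2b10, Cyp3a13 and Ugt2b34 showed -0.37, -0.67 and -1.28 at dim levels. Heat shock genes were higher in 12 of 20 (median 0.02), with the inducible chaperone gene Hspa1a at 0.37 and the small heat shock protein genes Hspb1 and Cryab at -0.51 and -0.18. Without overlap in both segments, 1 was higher and 4 lower, against 3.19% and 3.66% of all genes. Among endoplasmic reticulum genes 12 of 24 were higher and 12 lower, and Edem1, which targets misfolded proteins for degradation, was the 1 member at an unadjusted p under 0.05 (-0.41, SE 0.15). The cold-inducible gene Cirbp showed 0.24 (SE 0.20).

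Over both segments, the remaining lists stayed near the median of all genes. Medians were 0.03 over 20 iron, NAD and sirtuin genes, -0.05 over 22 fatty acid oxidation genes, 0.01 over 32 respiratory chain genes, 0.04 over 17 cytosolic ribosomal protein genes, 0.03 over 20 S phase genes and -0.04 over 19 mitosis genes. The respiratory chain was the tightest, with all 32 genes between -0.07 and 0.08. In the mitosis genes the segments differed in sign, with medians of -0.23 in DCT/CNT (5 of 19 higher) and 0.10 in CCD (12 of 19 higher). Over all genes the medians were -0.04 in DCT/CNT and -0.004 in CCD. For this list, the difference between the segments was not tested.

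**Figure D5:**
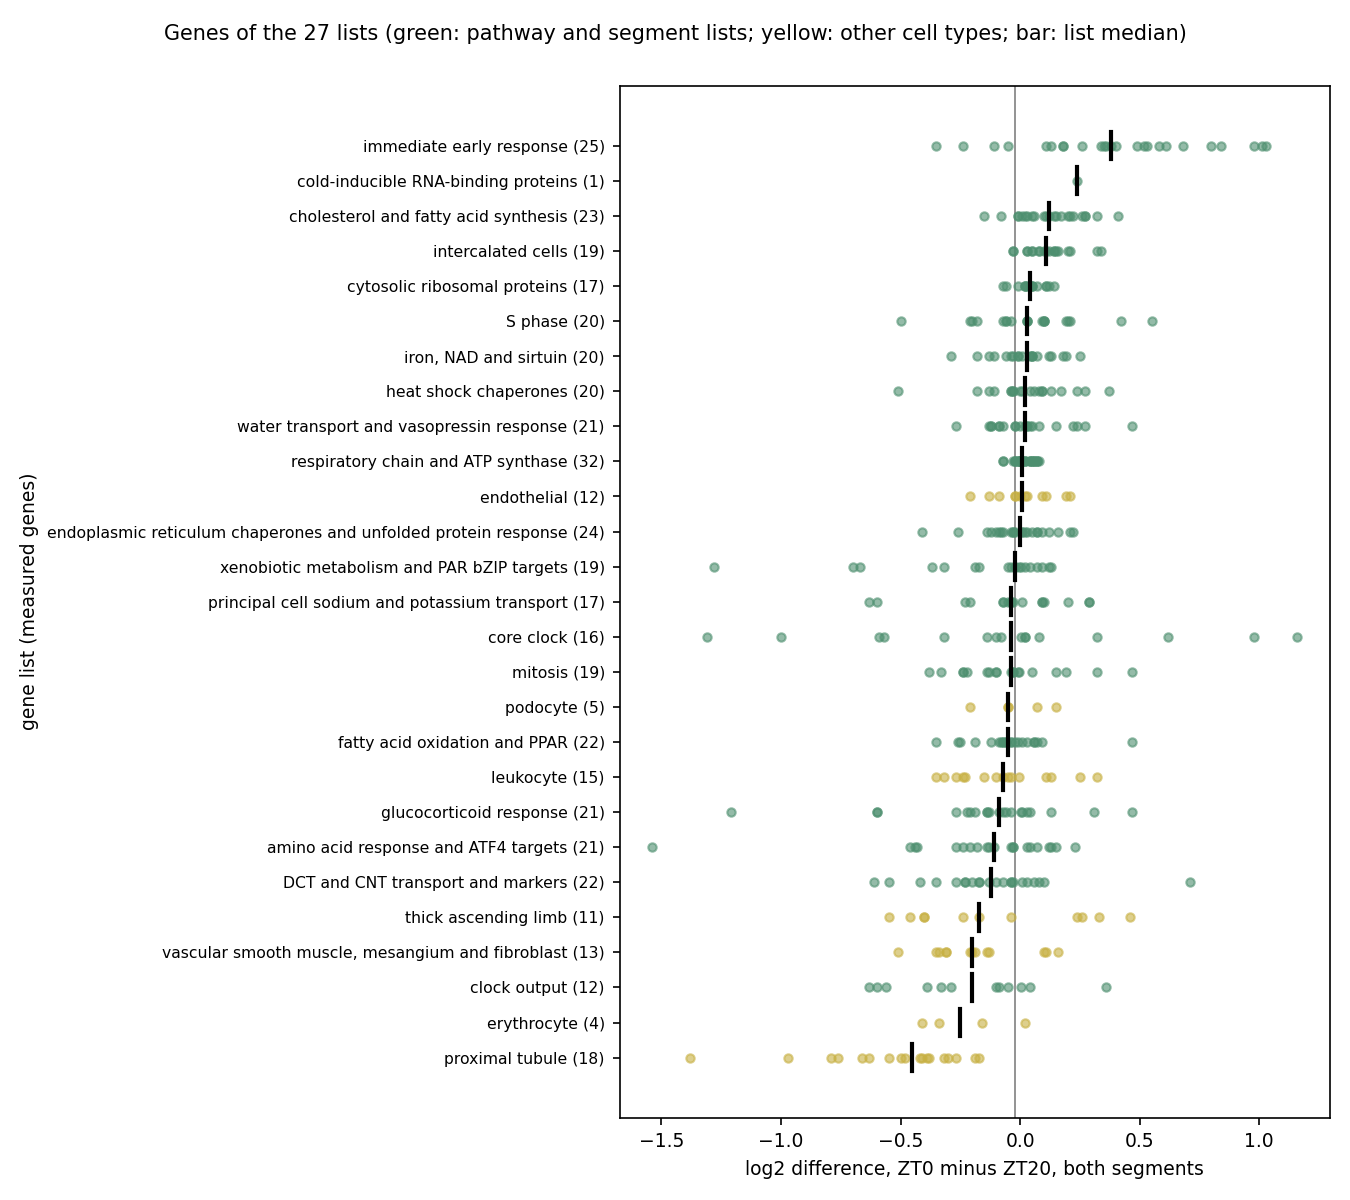
Log2 difference ZT0 minus ZT20 over both segments for every measured gene of 27 lists (points; number of genes in brackets), with the list median as a black bar and the median of all genes, -0.02, as a grey line. The immediate early list has the highest median of the lists with over 1 gene (0.38) and the proximal tubule list the lowest (-0.45).

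Outside the lists, a few genes had p-values as small as those of Per2 and Usp2, and they were named after their values were seen. Chic1, a membrane-associated protein gene, was at 7.80 and 7.85 against 8.28 and 8.39 in DCT/CNT and at 7.42 and 7.55 against 7.99 and 8.10 in CCD, a difference of 0.53 (SE 0.09, limma adjusted p = 0.087). Its other probe sets gave 0.32 and 0.39. Dnajb7, a DnaJ-family gene, was lower, at -1.05 (SE 0.16, limma adjusted p = 0.087) but at levels of only 2.90 to 4.75, among the dimmest values printed here. The palmitoyltransferase gene Zdhhc6 (0.52) and the endocytic adaptor gene Dab2 (0.38) were higher, and the matrix Gla protein gene Mgp (-0.91) and the BCL-2 family gene Bok (-0.68) lower, each without overlap in both segments and with adjusted p from 0.127 to 0.139.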

How the data were processed

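The deposited values are log2 expression, which the authors made with RMA, per the submitters' processing notes (version not given in the sources used here). Whether both segments were normalised in 1 run is not stated, and the labels give no batch or date. Of 45101 probe sets, 34958 had 1 gene symbol, 932 several and 9211 none, and 34754 matched the RefSeq gene table (GRCm38.p6, 0 symbols updated). Each of 18194 genes (9012 with several probe sets) was represented by its probe set of highest mean over the 24 arrays, with no filter on dim genes. The number of arrays limits the precision.

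A mean for each of the 12 groups was fitted to all 24 pools with limma 3.58.1 in R 4.3.3 (12 residual degrees of freedom). The step is the mean of both segments' differences. Moderated tests, both sides counted, were adjusted by Benjamini-Hochberg across the 18194 genes, with calls made below an adjusted p of 0.05. The fit was tested on simulated data. Alternatives were other normalisations, a filter on dim genes, averaged probe sets, an intensity trend, array weights, marker levels as covariates, the 8 pools alone, a replicate block and each ZT0 and ZT20 pool left out, for the difference of the 2 steps also each ZT8 and ZT12 pool.

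The comparison, the 27 gene lists and the tests were chosen with earlier results of these data known. Named were all clock and clock output genes, up to 8 genes outside those lists with the smallest p for the difference of the 2 steps, and up to 4 genes per other list. Markers of segments and cell types, among them Slc12a3 and Pvalb, were given as well, outside this rule. The genes of smallest p for the step (Dnajb7, Chic1, Zdhhc6, Dab2, Mgp and Bok), the rest of the immediate early list, the CACGTT and CArG motifs, leaving out ZT8 and ZT12 pools and the setting without the ZT0 pools numbered 2 were added after values were seen. The labels do not say whether pools of equal number are linked between groups. Promoter entries of Per2, Wee1, Bhlhe40, Ier2, Myc and Mapre2 were not used here.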

Additional observations from a re-analysis of the deposited data

Results flagged for a closer look

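For 3 marker genes of other cell types, the ZT0 and ZT20 pools did not overlap in either segment and the differences had opposite signs in the segments. The share of all genes with this pattern was not counted, so these 3 cannot be set against a background. The DCT/CNT difference minus the CCD difference was -0.47 log2 units for the podocyte gene Nphs1 (-0.17 and 0.30, unadjusted p 0.0555), 0.69 for the endothelial gene Cdh5 (0.54 and -0.15, unadjusted p 0.0506) and 0.47 for Slc25a37 of the erythrocyte list (0.25 and -0.22, unadjusted p 0.0541). None was called in limma's test of the difference between segments, and Nphs1 was dim in every pool.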

How the results depend on the processing

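Each value was recomputed under up to 30 alternatives, those without a ZT8 or ZT12 pool, chosen after seeing the data, for the difference of the 2 steps alone. The count of genes called over both segments, 0, was 5 with equal medians, 10 over genes at or above the median level, 3 with probe sets averaged, 16 with an intensity trend and 3 without both DCT/CNT ZT16 pools, and 0 to 14 with 1 pool left out. It was 0 in the 8 pools alone, with array weights, with quantile or cyclic loess normalisation, with the covariates and without the ZT0 pools numbered 2, a setting chosen after seeing the data. Both pools of each group got the same array weight, so that setting could not give 1 deviant pool less weight than its partner. In DCT/CNT the 0 was 1 with quantile normalisation, 8 with an intensity trend, 7 without those ZT0 pools and 0 to 106 with 1 pool left out. In CCD it was 1 without those ZT0 pools and 0 to 6 with 1 pool left out, and for the difference between segments 2 and 0 to 11. The 1439 genes at an unadjusted p under 0.05 were 865 over the brighter genes, where fewer genes were tested. The 97 genes whose 2 steps differed were 172 over the brighter genes, 146 with probe sets averaged, 212 with an intensity trend, 11 with the covariates, 27 without the ZT0 pools numbered 2 and 56 to 136 with 1 pool left out. Without those ZT0 pools the 15 immediate early genes higher at an unadjusted p were 7 (11 to 14 with 1 pool left out), the 18 proximal tubule genes lower were 8 (13 to 18) and the 7 thick ascending limb genes lower were 4 (5 to 9). The proximal tubule count was 11 over the brighter genes, where fewer were tested, and 10 with the covariates, and the thick ascending limb count 3 over the brighter genes. The proximal tubule covariate is the mean level of these same markers. Their mean difference is thus removed by construction, and the 10 says nothing about the step. Elsewhere, where no smaller gene number or pool number is named, the cause was not tested.

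The labels do not link pools of equal number, so they were not taken as pairs. The pool differences of 2 groups of ZT0 or ZT20 correlated at -0.15 to 0.08 across genes, with 0.08 between DCT/CNT ZT0 and CCD ZT0. Such a correlation over all genes cannot tell whether pools are linked. With the number as a replicate block, 0 genes were called over both segments, in either segment or for their difference, and 87 for the difference of the 2 steps, 83 of them among the 97. Dnajb7 (limma adjusted p 0.0538, 0.042 without the block) and Nr4a1 (0.0539) lost their call for the difference of the steps under the block. Both also lost it with quantile normalisation (0.0546 and 0.0501), cyclic loess (0.0505 and 0.0535), array weights (0.0687 and 0.0536) and the covariates. Myc lost its call with quantile normalisation (0.0696), array weights (0.0536) and the covariates.

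Of 150 gene values, 135 kept their sign under every alternative. With 1 pool left out in turn, the other 15 ran from -0.14 to 0.15 (Per1, 0.003 with all pools), -0.12 to 0.13 (Leo1, 0.004), -0.06 to 0.10 (Clock, 0.02), -0.07 to 0.11 (Csnk1e, 0.02), -0.25 to 0.04 (Dbp, -0.10), -0.23 to 0.12 (Nfil3, -0.05), -0.01 to 0.37 (Nr4a2, 0.18), -0.0009 to 0.09 (Avpr1a, 0.05), -0.02 to 0.17 (Nr1d2, 0.08), -0.07 to 0.14 (Tfrc, 0.04), -0.05 to 0.09 (Slc25a37, 0.02), -0.21 to 0.04 (Bhlhe41, -0.08), -0.10 to 0.003 (Fosl2, -0.05), -0.04 to 0.17 (Nphs1, 0.07) and -0.02 to 0.40 (Cdh5, 0.19). With quantile normalisation Per1, Leo1 and Clock were each -0.01, with cyclic loess -0.02, -0.02 and -0.01. With the covariates Per1 was -0.01, Leo1 -0.05, Dbp 0.01 and Nr4a2 -0.01, and without the ZT0 pools numbered 2 Per1 was -0.28, Dbp 0.09, Nfil3 0.17, Nr4a2 -0.12 and Avpr1a -0.02. Csnk1e was -0.18 with probe sets averaged. The cause was not tested.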
